A study of Mus musculus with 12 samples.

Results

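A set of 554 chromatin regions, of 48244 in all (1.15%), was open in microglia of PBS-treated mice and was called in no LPS library of 3 or 14 months. The regions were chosen by measured values, namely the presence or absence of an ATAC-seq peak, so their calls at 3 and 14 months are a description and not a finding. ATAC-seq marks open chromatin by the cuts of a transposase, and a peak is a stretch where cuts pile up above the background of the same library. Overlapping peaks of the 12 libraries on chromosomes 1 to 19 and X were merged, sharing 1 bp or more. A region was kept if it was called in all 4 PBS libraries of 3 and 14 months, in none of the 4 LPS libraries of those ages and in 1 or 2 of the 2 PBS libraries of 24 months. "Closed" below means no called peak. Accessibility below the calling threshold cannot be seen in peak lists, and because the libraries are bulk pools, fewer open cells and less opening per cell cannot be told apart.

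The groups were wild-type (WT) C57BL/6J female mice of 3, 14 and 24 months, given LPS (lipopolysaccharide, a bacterial cell wall component) or its vehicle PBS. Each group had 2 libraries, each a pool of 2 to 3 mice. LPS was injected intraperitoneally, and the sources differ on the interval to collection. Because the libraries are pools from 5 mice per group, p-values measure the spread between pools. Calls do not carry read depth, which is unknown here, and lists held 28618 peaks (14-month LPS, second library) to 41532 peaks (24-month PBS, second library).

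Microglia are the resident macrophages of the brain. In the resting state they express a set of homeostatic genes, among them Tmem119, P2ry12, Siglech and Gpr34, under lineage factors such as PU.1, IRF8, MAF family proteins and the SMAD proteins of TGF-beta signalling. LPS is sensed by Toll-like receptor 4, which activates NF-kB and AP-1, and regulatory elements away from promoters are the part of the genome whose accessibility usually differs most between resting and stimulated macrophages. Of 38 homeostatic microglial genes, 33 had a region within 1 kb of the transcription start site (TSS) that was called in all 12 libraries, whereas no promoter of 8 neuronal, 6 granulocyte, 6 monocyte and border macrophage or 6 lymphocyte markers was called in any library. Among astrocyte, oligodendrocyte and endothelial markers, 2 promoters each were called in some but not all libraries.

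One LPS library had a higher mean overlap with the PBS lists than with the other LPS lists. The lists were compared by the share of regions that 2 libraries had in common, out of those called in either. For the second 24-month LPS library this share averaged 0.829 with the PBS lists and 0.799 with the other LPS lists, whereas for the first 24-month LPS library it averaged 0.756 and 0.811. Both LPS averages include the shortest list, that of the second 14-month LPS library. Its own averages were 0.665 with PBS and 0.733 with other LPS lists, and how far it lowers the LPS averages was not tested. Each result at 24 months is therefore given for the 2 LPS libraries separately.

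Sequences of 7 members are given for 300 bases around the summit, the point of highest signal, on GRCm38 (mm10), plus strand, and a window can reach past the ends of its region. They are the strongest member, 5 members nearest to homeostatic genes and 1 with matches to 3 motifs. Capitals mark matches, on either strand, to short motifs of transcription factors: the PU.1 site GAGGAAGT, the MAF half-site TGCTGAC, the SMAD element TGTCTGG, the RUNX site TGTGGTT and the E-box CACGTGA of the TFE and MITF family. The Gpr34 window holds no match to any of the 16 motifs searched and is shown in lower case throughout.
Csmd3 (chr15:48838124-48838423, intergenic, 1 SMAD match): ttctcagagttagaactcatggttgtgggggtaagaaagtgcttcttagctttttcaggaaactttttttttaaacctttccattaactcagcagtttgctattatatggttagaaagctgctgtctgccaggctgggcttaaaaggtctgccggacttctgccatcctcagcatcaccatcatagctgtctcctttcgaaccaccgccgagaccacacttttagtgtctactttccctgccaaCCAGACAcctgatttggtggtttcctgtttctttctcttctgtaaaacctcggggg
Siglech (chr7:55744629-55744928, intergenic, 1 MAF match): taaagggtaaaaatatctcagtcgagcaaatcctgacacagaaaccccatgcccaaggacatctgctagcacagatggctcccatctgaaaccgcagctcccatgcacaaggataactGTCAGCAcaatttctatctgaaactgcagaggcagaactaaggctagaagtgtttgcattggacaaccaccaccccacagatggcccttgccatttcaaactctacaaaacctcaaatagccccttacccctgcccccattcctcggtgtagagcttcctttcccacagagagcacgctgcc
Gpr34 (chrX:13618582-13618881, intron of Cask, no match): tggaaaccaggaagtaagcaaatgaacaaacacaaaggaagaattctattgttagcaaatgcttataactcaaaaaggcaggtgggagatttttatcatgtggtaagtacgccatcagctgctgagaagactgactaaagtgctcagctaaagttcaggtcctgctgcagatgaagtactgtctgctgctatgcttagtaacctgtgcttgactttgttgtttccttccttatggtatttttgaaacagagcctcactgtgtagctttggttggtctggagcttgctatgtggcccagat
Tmem119 (chr5:113796728-113797027, first intron of Tmem119, 1 SMAD match): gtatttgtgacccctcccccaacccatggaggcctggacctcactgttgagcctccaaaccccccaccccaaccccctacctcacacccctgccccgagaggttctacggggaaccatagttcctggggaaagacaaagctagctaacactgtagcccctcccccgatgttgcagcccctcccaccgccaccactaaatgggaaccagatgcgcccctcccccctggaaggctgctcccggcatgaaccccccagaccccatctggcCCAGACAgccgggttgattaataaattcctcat
Tmem119 (chr5:113793191-113793490, intergenic, 1 SMAD and 1 MAF match): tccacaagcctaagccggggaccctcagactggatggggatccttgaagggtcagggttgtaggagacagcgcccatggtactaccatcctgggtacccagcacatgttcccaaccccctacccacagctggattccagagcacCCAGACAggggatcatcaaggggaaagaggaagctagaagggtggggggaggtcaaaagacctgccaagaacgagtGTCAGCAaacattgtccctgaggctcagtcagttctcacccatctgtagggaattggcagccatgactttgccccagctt
Gas6 (chr8:13472243-13472542, intron of Gas6, 1 E-box match): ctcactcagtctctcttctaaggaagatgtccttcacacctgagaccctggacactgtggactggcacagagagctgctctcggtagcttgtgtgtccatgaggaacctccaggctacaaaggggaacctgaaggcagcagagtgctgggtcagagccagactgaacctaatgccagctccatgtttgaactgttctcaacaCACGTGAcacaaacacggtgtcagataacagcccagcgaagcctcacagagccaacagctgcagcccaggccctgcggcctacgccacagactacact
Gm43363 (chr5:90413292-90413591, intergenic, 1 PU.1, 1 SMAD and 1 RUNX match): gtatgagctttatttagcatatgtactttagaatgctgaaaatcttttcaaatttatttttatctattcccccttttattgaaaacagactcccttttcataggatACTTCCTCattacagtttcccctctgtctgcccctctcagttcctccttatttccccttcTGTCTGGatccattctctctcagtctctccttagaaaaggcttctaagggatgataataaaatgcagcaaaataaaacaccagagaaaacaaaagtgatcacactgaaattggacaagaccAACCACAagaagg

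The members were small and weak peaks against all regions, but not against regions called in as many libraries. Their median width was 325.5 bp (quartiles 257 and 425 bp), against 436 bp for all regions and 324 bp for the 5906 other regions called in as many libraries as members, 5 to 8. Strength was taken as the percentile of a peak's area among all peaks of its own list, where 100 is the strongest. Over the 4 younger PBS libraries the median member had a mean percentile of 19.0. It was 42.8 for all regions and 11.9 for the other regions called in as many libraries. Both comparison values use only the younger PBS libraries that called a region. At or below 25 lay 391 of 554 members (70.6%). Of the 31202 regions called in all 4 younger PBS libraries and in 1 or 2 of the 24-month PBS libraries, 13.9% lay there. Members made up 9.03% of those regions with a mean percentile up to 25, 1.77% between 25 and 50, and 0.0897% between 50 and 75, and none lay above 75.

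In single PBS libraries the median area percentile of the members was 16.1 and 21.9 at 3 months, 14.7 and 25.6 at 14 months, and 14.7 and 19.3 at 24 months, and its mean over the 6 libraries was 18.7. The second library stood above the first at every age, and the second list was also the longer at every age. In the same libraries the median of the 31202 PBS regions ran from 55.1 to 62.2. In the 24-month LPS libraries, the 50 members called in the first had a median percentile of 5.30, and the 314 called in the second had one of 11.4. Both lay below all 6 PBS medians.

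**Figure D1:**
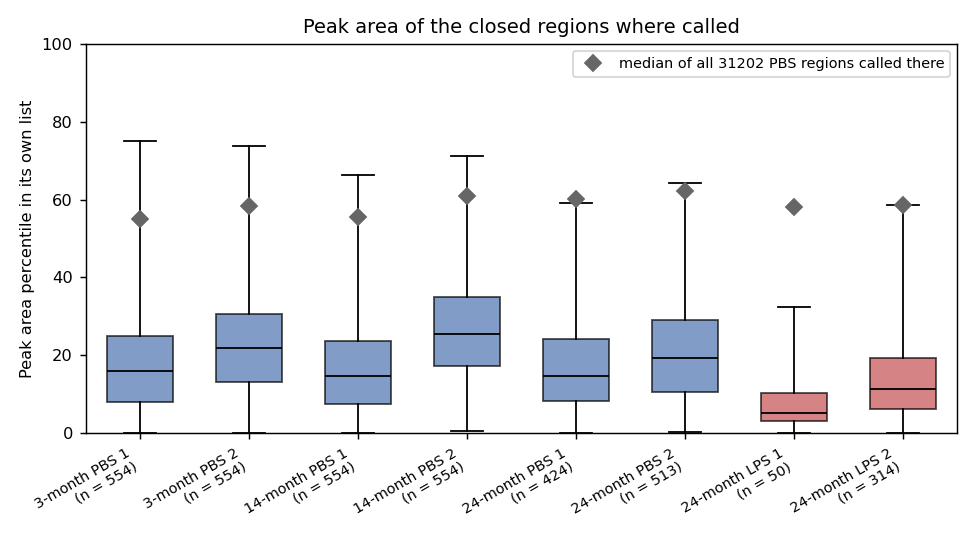
Peak area percentile (vertical axis, percentile within a library's own list) of the 554 closed regions in each library where they were called. Boxes show median and quartiles, whiskers the lowest and highest value, and grey diamonds the median of all PBS regions called in that library; the boxes lie below the diamonds in all 8 libraries, and lowest in the first 24-month LPS library.

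To ask whether this baseline opening shifted with age in the absence of LPS, the 383 members called in all 6 PBS libraries were compared across ages. Their median percentile was 18.1 and 24.5 at 3 months, 17.2 and 28.6 at 14 months, and 15.6 and 22.7 at 24 months, which gave means of 21.3 ± 4.50, 22.9 ± 8.04 and 19.1 ± 5.06 (SD, n = 2 libraries each). The ages overlapped, since the 2 libraries of an age differed by more than the means did. The slope was -0.10 percentile points per month (exact permutation test, two-sided, p = 0.711 over 90 arrangements of the ages). With every list cut to the length of the shortest, the slope was -0.28 points per month (exact permutation test, p = 0.0444), and it was 0.035 without the second 3-month PBS library and 0.01 without the first 24-month PBS library.

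At 24 months LPS came with fewer calls of the members, but unequally in the 2 libraries. The first 24-month PBS library held 424 of 554 members (76.5%) and the second 513 (92.6%), which the rule in part fixed. The LPS libraries of this age, which the rule did not use, held 50 members (9.03%, Wilson 95% interval 6.91 to 11.7) and 314 members (56.7%, 52.5 to 60.7). The intervals cover counting error alone. The 2 LPS libraries thus differed from each other by more than the 2 PBS libraries did.

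Both 24-month LPS libraries held 27 of 554 members, against 89.9% of the 31202 PBS regions. Neither library held 217 members (39.2%), against 1.65% of the PBS regions. The remaining members were called in one library, 287 in the second alone and 23 in the first alone. Of all 554 members, 132 were called in both PBS libraries of 24 months and in neither LPS library of that age. Over all 48244 regions, 2153 (4.46%) showed that pattern, while the rule required a 24-month PBS call of every member. Without the first 24-month LPS library 314 members were still called, and without the second 50. With the rule applied without the first or the second 3-month LPS library, 90 of 960 and 56 of 714 regions were called in both.

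Because the rule required a call in old PBS microglia, the change with LPS at 24 months was tested in the wider set of 633 regions chosen with no condition at that age. Of these, 67.0% and 81.0% were called in the PBS libraries and 7.90% and 55.5% in the LPS libraries. Both LPS values lay below both PBS values, and the mean share was 42.3 percentage points lower (LPS minus PBS -42.3; exact permutation test, two-sided, p = 0.333, the smallest p that 2 against 2 libraries allow). Without the second 24-month LPS library the difference was -66.1 points, and without the first it was -18.6 points. The LPS shares were lower over all 48244 regions too, but by less. There the 24-month PBS libraries called 79.5% and 84.6%, and the LPS libraries 70.2% and 75.4%.

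**Figure D2:**
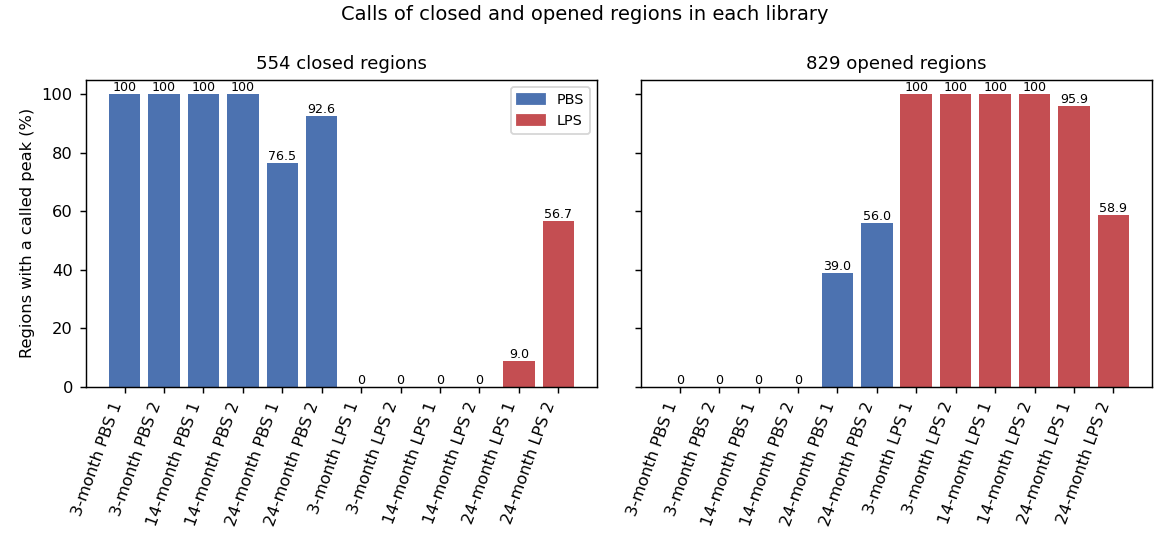
Share of regions with a called peak (vertical axis, %) in each library, for the 554 closed regions and for the 829 regions opened after LPS. The values of 0 and 100 at 3 and 14 months follow from the rules. The rules also required a call in 1 or 2 of the 24-month PBS libraries for closed regions. For opened regions they required 1 or 2 of the 24-month LPS libraries. At 24 months the second LPS library held 56.7% of the closed and 58.9% of the opened regions.

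The same library held an intermediate share of the reverse set. With the treatments exchanged in the rule, 829 of 48244 regions (1.72%) were opened after LPS at 3 and 14 months. The first 24-month LPS library held 95.9% of them and the second 58.9%. The exchanged rule required a call in 1 or 2 of these 2 libraries, which in part fixed both shares. The PBS libraries of 24 months, in which that rule set no condition, held 39.0% and 56.0%. The second LPS library therefore lay close to the second PBS library for opened regions, and between the LPS and PBS libraries for closed ones.

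The members called again in the second 24-month LPS library ranked higher in younger PBS mice, at the median, than those called in neither. The 287 members called in that library alone had a median younger PBS percentile of 22.1 (quartiles 16.0 and 30.5), and the 217 called in neither had one of 15.3 (11.4 and 21.3), so the quartile ranges overlapped. The 23 called in the first LPS library alone had a lower median than either, 14.1.

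Peak area at 24 months was compared where a member had a peak in an LPS library and in both PBS libraries of that age. In the second LPS library 232 members did, with a median percentile of 12.5 after LPS and 20.4 in PBS, and 156 (67.2%) were lower after LPS, against 66.6% of the PBS regions compared in the same way. Percentiles depend on list length, and the LPS lists were the shorter ones. By rank from the top of the list, 48.3% of these members and 47.4% of the PBS regions stood lower after LPS. In the first LPS library 45 members did, at 5.35 against 23.9, and 44 were lower by percentile (97.8%, against 77.0% of the PBS regions) and 32 by rank (71.1%, against 53.3%). Rank is bounded by list length as well, since a called peak cannot rank past the end of its list. The first and second LPS lists held 35139 and 37160 kept peaks, and the PBS lists 39064 and 41501. The members lay near the end, at median LPS ranks of 33258 and 32500.5. Both rank comparisons were added after the data were seen and were not tested.

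Calls at 24 months followed how many of the younger LPS libraries held a region. Among the 31202 PBS regions, those held by 0, 1, 2, 3 or 4 younger LPS libraries numbered 554, 676, 1421, 4033 and 24518. The first 24-month LPS library called 9.03%, 21.2%, 46.9%, 78.5% and 99.0% of them, and the second called 56.7%, 76.5%, 87.9%, 96.7% and 99.8%. The share in the first 24-month PBS library ran from 76.5% to 99.8% in the same order. Strength moved in parallel, with median younger PBS percentiles of 19.0, 20.7, 21.5, 29.4 and 66.3, and its part in the trend was not tested.

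**Figure D3:**
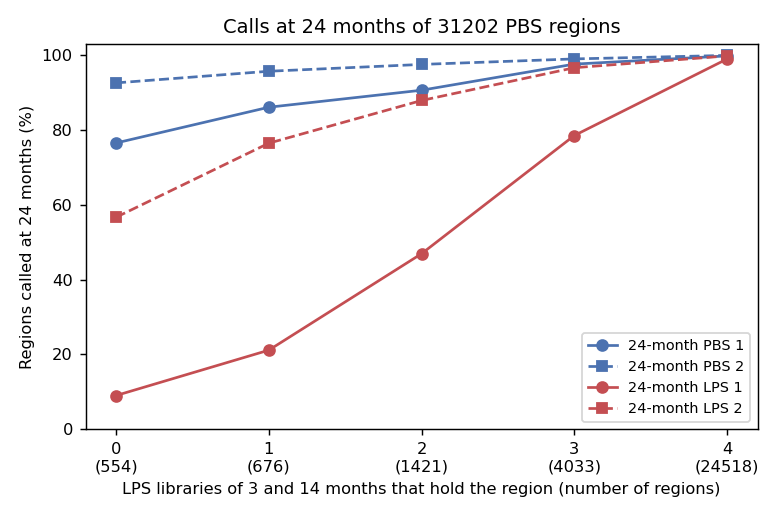
Share of regions called at 24 months (vertical axis, %) against the number of 3- and 14-month LPS libraries that hold the region (horizontal axis, with the number of regions in brackets), for each 24-month library. The closed regions are the leftmost points; the first LPS library rises from 9.03% to 99.0% and lies below the other 3 at every step.

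The rule draws a line through weak peaks. Just inside it were 171 members called in 1 of the 24-month PBS libraries (130 in the second and 41 in the first), with a median younger PBS percentile of 14.7, and 383 members called in both had one of 21.1. Just outside were 79 regions called in neither (13.6), 676 regions called in 1 younger LPS library (20.7) and 520 regions missing from 1 younger PBS library (11.9). Of the 676, 406 were held by the first 3-month LPS library and 1 by the shortest list, that of the second 14-month LPS library. Leaving out that shortest list added 1 member.

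The members lay away from promoters. Only 33 of 554 (5.96%) were within 1 kb of a TSS, against 28.8% of all regions, 14.7% of the other regions called in 5 to 8 libraries and 11.2% of the opened regions. Introns held 305 members (55.1%), 119 of them in a first intron, against 40.4% of all regions and 48.1% of the regions called in as many libraries. Intergenic sequence held 183 (33.0%, against 26.7% and 32.1%), untranslated exons 18, coding exons 9 and exons of noncoding transcripts 6. The median distance to a TSS was 13.4 kb (quartiles 5.96 and 30.4), against 5.45 kb for all regions and 8.17 kb for those called in as many libraries, and 70 members were more than 50 kb away. The promoter share was also lower at like strength. Among regions with a mean percentile up to 25 it was 7.16% in members and 14.3% in all PBS regions, and between 25 and 50 it was 2.58% against 19.3%.

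Members lay farther from constitutive elements than other regions did, at the median, and nearer to each other. The nearest region called in all 12 libraries was a median 14.0 kb away, against 8.03 kb for the other regions called in 5 to 8 libraries. A peak present in all 4 younger LPS libraries lay within 1 kb of 51 members (9.21%), against 16.4% of those other regions. Another member lay within 50 kb of 68 members (12.3%) and a member lay within 50 kb of 6.67% of the other regions. Members were found on all 20 chromosomes, from 0.647% of the regions on chromosome 19 to 1.48% on chromosome 13.

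Members held fewer CpG pairs than all regions. The median GC content of the 300-base window was 49.0% in members, 49.3% in regions called in as many libraries and 51.3% in all regions. CpG pairs averaged 3.90, 5.95 and 9.57 per window in the same order.

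PU.1, MAF and SMAD matches were found at higher shares in members than in all regions, and AP-1 and CTCF matches at lower ones. A PU.1 site was found in 82 members (14.8%, lower bound of the Wilson 95% interval 12.1), against 11.3% of all regions, 11.2% of those called in as many libraries and 10.3% of opened regions. PU.1 is the ETS factor that defines the myeloid lineage. The MAF half-site was found in 63 members (11.4%, interval 8.99 to 14.3), against 7.34%, 7.65% and 7.84%, and the SMAD element in 62 (11.2%, 8.83 to 14.1), against 7.34%, 7.35% and 8.44%. Away from promoters the PU.1 shares were 14.8% in members and 13.7% in all regions, the MAF shares 11.7% and 8.45%, and the SMAD shares 11.9% and 8.28%.

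The AP-1 site TGANTCA, bound by FOS and JUN proteins, was found in 29 members (5.23%, 3.67 to 7.42). It was found in 12.9% of all regions, 17.5% of those called in as many libraries and 54.8% of opened regions. The regions called in as many libraries include all 829 opened regions, which raises their AP-1 share. The NF-kB motif was found in 3.07% of members, 6.21% of all regions and 8.32% of opened regions. The C/EBP motif TTGCNNAA was found in 11.7% of members, 13.1% of all regions and 26.4% of opened regions. CTCF, the insulator protein, had a match in 4 members (0.722%), against 4.88% of all regions, and the GC-rich SP1 and KLF motif GGGGCGGG of promoters in 8 (1.44%, against 10.7%). The IRF motif GAAANNGAA was found in 11.9% of members and 10.9% of all regions, and the RUNX site in 8.66% and 7.81%. MEF2, a factor of resting microglia, had a match in 9 members (1.62%, against 0.877%). STAT was at 3.79% against 4.88% and the E-box at 3.25% against 3.59%, while the ETS site of promoters, the CRE and the EGR motif were found in 2, 1 and 0 members. No motif of the 16 was found in 200 members (36.1%), against 30.8% of all regions and 12.7% of opened regions. Motifs were sought on both strands, a base could belong to matches of more than one motif, and a match does not show binding.

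**Figure D4:**
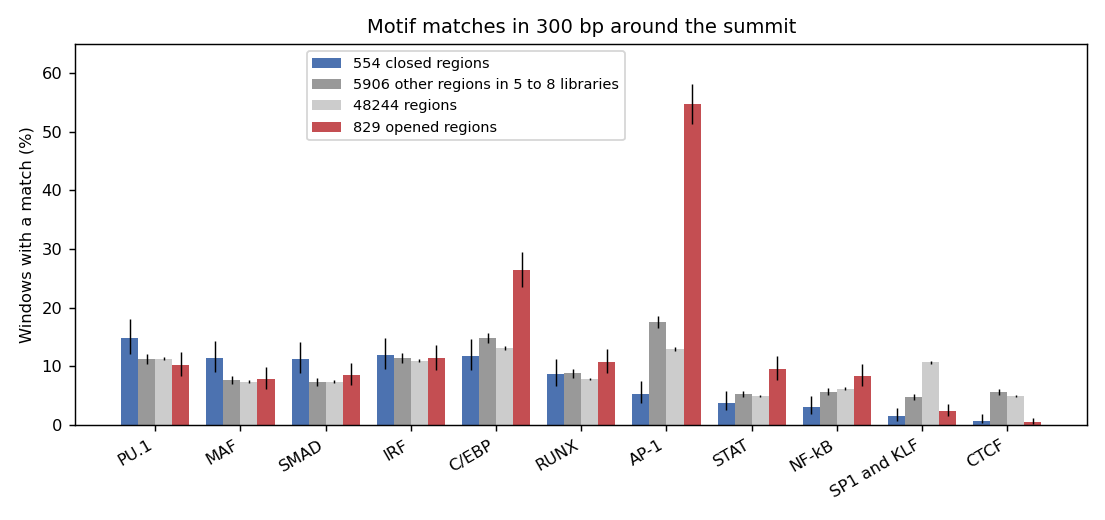
Share of 300-base windows with a motif match (vertical axis, %; bars with Wilson 95% intervals) for closed regions, other regions called in 5 to 8 libraries, all regions and opened regions. AP-1 is at 5.23% in closed and 54.8% in opened regions, and PU.1, MAF and SMAD stand at 11.2% to 14.8% in closed regions. The opened regions are also among the other regions called in 5 to 8 libraries.

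Of the SMAD matches, 43 were among the 314 members called in the second 24-month LPS library (13.7%) and 16 among the 217 called in neither (7.37%). The PU.1 shares ran the other way, 13.7% (43) and 18% (39). The MAF shares were 12.4% and 10.6%. These subgroup shares were not tested.

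The nearest genes included several that mark resting microglia. Of 245 regions nearest to a gene of the homeostatic list, 8 were members (3.27%, against 1.15% of all regions) and 2 were opened (0.816%, against 1.72%). The list was written with earlier results of these data known, so these shares are a description and were not tested. The 8 members lay at Siglech, Gpr34 (2), C1qa, Tmem119 (2), Rhob and Gas6. All 8 were called in both 24-month PBS libraries, none in the first 24-month LPS library and 4 in the second. Each of these genes also had at least 1 region called in all 12 libraries, as had 143 of the 245 regions.

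Siglech, a sialic acid-binding lectin of microglia, had its member 23.4 kb upstream of the TSS (chr7:55744287-55745174, intergenic). Its area percentile was 75.2 and 73.8 in the 3-month PBS libraries, 51.0 and 66.8 at 14 months and 46.1 and 62.0 at 24 months. It was called in no LPS library of any age, and the 3-month values were the highest of the 6. The other 3 regions nearest to Siglech were called in all 12 libraries.

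Gpr34, a receptor for lysophosphatidylserine, had 2 members among 10 regions, and 3 of the 10 were shared by all 12 libraries. One lay 13.4 kb upstream (chrX:13618430-13618985, in an intron of Cask), at 62.1 and 59.7, 66.4 and 69.8, and 59.1 and 55.4 percentile in PBS libraries of 3, 14 and 24 months. The other lay at the TSS itself (chrX:13632616-13633030, summit 0.027 kb from it), at 20.8 and 27.3, 27.9 and 39.5, and 13.6 and 22.7. Neither was called in any of the 6 LPS libraries, and the upstream region ranked above the TSS region in all 6 PBS libraries.

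Tmem119, a membrane protein used as a microglial marker, had 2 members among 7 regions, with 3 called in all 12 libraries. The member in its first intron (chr5:113796487-113797341) was at 41.9 and 34.5, 42.5 and 53.7, and 47.5 and 56.3 in PBS at 3, 14 and 24 months. The member 7.18 kb from the TSS (chr5:113793202-113793553, intergenic) was at 29.4 and 23.7, 29.1 and 34.0, and 21.6 and 35.5. In the second 24-month LPS library they were called at 32.2 and 11.4, below all 6 PBS values in both cases, and they were called in no other LPS library.

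C1qa encodes a chain of C1q, the first component of complement. Its member (chr4:136896404-136897320, in an intron, 2.00 kb from the TSS) was at 54.0 and 65.8, 31.7 and 41.6, and 37.3 and 28.5 in PBS. It was absent from the first 24-month LPS library and stood at 58.6 in the second. That value was within the range of PBS over all ages and above both 24-month PBS values. One region of 6 at C1qa was called in all 12 libraries.

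Rhob, a small GTPase of endosomes and the cytoskeleton, had a member 6.37 kb from its TSS (chr12:8492651-8493853, intergenic) at 27.5 and 49.7, 21.4 and 41.9, and 49.1 and 22.9. It was called in no LPS library. Gas6 is a ligand of the receptors Axl and Mertk, which serve the uptake of dying cells. Its intronic member (chr8:13472252-13472548) was at 19.6 and 28.1, 22.5 and 34.1, and 25.2 and 2.61 in PBS, and at 7.67 in the second 24-month LPS library.

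**Figure D5:**
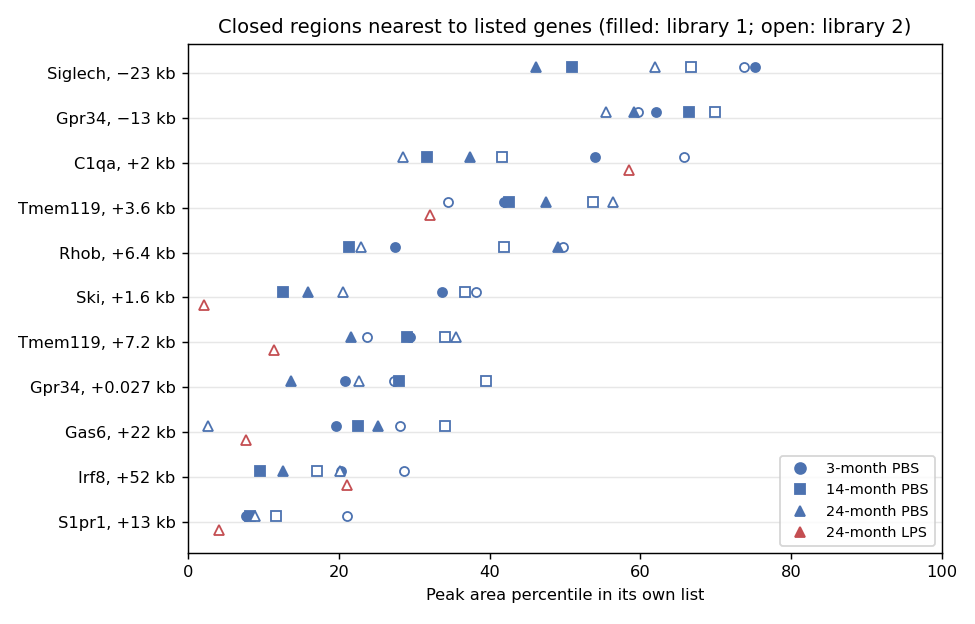
Peak area percentile (horizontal axis, within a library's own list) of the 11 closed regions nearest to listed genes, with the distance to the TSS, in each PBS library and in the 24-month LPS libraries where called. Filled and open symbols are libraries 1 and 2. No red symbol is filled, since none of the 11 was called in the first 24-month LPS library. That library held 9.03% of all 554 members.

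Genes of TGF-beta signalling, lineage factors and receptors had members at shares near or below the 1.15% of all regions. Ski, a co-repressor of SMAD proteins, had one in its first intron (chr4:155220792-155221355) with a mean younger PBS percentile of 30.3 (12.6 to 38.2 over 4 libraries), the only member among 146 regions at TGF-beta signalling genes (0.685%). Irf8, a lineage factor of microglia, had one 52.2 kb from its TSS (chr8:120790735-120791101) at 18.9 (9.49 to 28.6), the only member among 269 regions at microglial and myeloid transcription factors (0.372%). S1pr1, a receptor for sphingosine 1-phosphate, had one 12.8 kb away (chr3:115702154-115702379) at 12.1 (7.63 to 21.1), which with the Gpr34 pair made 3 of 188 regions at chemokine, purine and lipid receptors (1.60%). The members at Ski, Irf8 and S1pr1 were called in the second 24-month LPS library and not in the first. With each region given to the nearest protein-coding gene, the 3 lists held 1 of 256, 9 of 668 and 4 of 253 regions, with 3 members at Maf, 2 each at Zeb2 and S1pr1 and 1 each at Mef2c, Sall1 and Zeb1, and the homeostatic list held 10 of 357.

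No member was nearest to a gene of the inflammatory lists, which are small enough to hold few members at the background share. None of 202 regions at inflammatory NF-kB target genes, 169 at Toll-like receptor 4 signalling genes, 70 at interferon response genes or 67 at antigen presentation genes was a member, where 1.15% of all regions were. Of the same regions 14, 6, 0 and 1 were opened. With each region given to the nearest protein-coding gene instead, 2 members fell to the NF-kB target Cd83, 1 to Nfkb1 and none to the interferon and antigen lists. Cd9 gave 1 member of 101 regions at disease-associated microglia genes, and Hexa and Scarb1 gave 2 of 238 at phagocytosis and lysosome genes. The lists of neuron, astrocyte, oligodendrocyte, endothelial, granulocyte, monocyte and lymphocyte markers held none by nearest TSS. They had only 3, 7, 11, 14, 2, 8 and 2 regions, too few to set against the background share. By nearest protein-coding gene, Snap25 gave 1 of 6 neuron, Cdh5 1 of 22 endothelial and Cd163 1 of 16 monocyte regions.

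The nearest annotated TSS was that of a protein-coding gene for 277 of the 554 members (50%). This share was 63.09% for all regions and 56.96% for the other regions called in as many libraries. The remaining members were nearest to entries of other types, among them lincRNAs, antisense transcripts and pseudogenes. Members were spread over 525 genes, of which 501 had 1 member, 20 had 2 and 4 had 3 or more. The lincRNA Gm47431 had 4 members over 63.9 kb of chromosome 12, and the nearest protein-coding gene to all 4 was Arhgap5, 49.9 to 113 kb away. The snRNA gene Gm23677 had 3 over 38.6 kb of chromosome 8, for which the nearest protein-coding gene was Maf, 71.5 to 110 kb away. Maf is a transcription factor of the resting state of macrophages. Among the 34 regions nearest to it by that count, 13 were called in all 12 libraries and 2 were opened.

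The pseudogene Gm9855 had 3 members over 42.7 kb of chromosome 10, 70.9 to 113 kb from the nearest protein-coding gene, Armc2, and Fbxw11, which encodes a substrate receptor of a ubiquitin ligase, had 3 over 77.0 kb of chromosome 11. The members of one gene differed in strength. At Gm47431 the mean younger PBS percentile ran from 12.8 to 34.9, at Gm23677 from 14.7 to 36.9, at Gm9855 from 11.3 to 40.1 and at Fbxw11 from 7.17 to 28.3. Of these 13 members 1 was called in the first 24-month LPS library and 10 in the second.

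The 20 members with the highest younger PBS percentile ran from 68.8 to 43.6. Of these, 12 were intronic, 7 intergenic and 1 within 1 kb of a TSS. All 20 were called in both 24-month PBS libraries, none in the first 24-month LPS library and 16 in the second. The first was an intergenic region 46.2 kb upstream of Csmd3 (chr15:48837939-48838480), which encodes a large membrane protein of neurons. It was at 69.8 and 73.0, 64.6 and 67.8, and 50.3 and 54.9 in PBS of 3, 14 and 24 months, and at 41.9 in the second 24-month LPS library, so the LPS value lay below all PBS values.

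Besides Csmd3, Siglech, the upstream Gpr34 region and C1qa, the strongest members included an intron shared by Gm17233 and Rcbtb2 (57.5 ± 8.09), an intron of Khdrbs3, an RNA-binding protein (54.8 ± 1.70), and the promoter of the transcript Gm37447 within Dis3l2, an exoribonuclease (54.8 ± 9.25). A region 30.2 kb from Ino80c, a subunit of the INO80 chromatin remodeller (49.9 ± 4.76), and a region 35.2 kb from Psma1, a subunit of the proteasome (44.5 ± 6.91), followed. Errors are SDs over 4 younger PBS libraries. The remaining 11, with means of 43.6 to 52.8, were nearest to Gm13802, Gm23443, the deubiquitinase Usp49, Gm43363, Lrrc37a, Gm47209, Gm44162, Gm15600, Gm20406, Zfyve21 and Gm26815.

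Of the 33 members within 1 kb of a TSS, the 10 strongest ran from 54.8 to 20.1. They lay at Gm37447, Runx1t1, Gm36967, Gpr34, Gm16741, Fer, Tmcc1, Gm37519, BC147527 and A630019I02Rik. Runx1t1, a transcriptional co-repressor, was at 36.5 ± 13.6 (chr4:13742843-13743906), Fer, a tyrosine kinase, at 21.7 ± 12.4 and Tmcc1 at 21.5 ± 4.30. Of the 10, 5 belonged to protein-coding genes, 2 were called in the first 24-month LPS library and 7 in the second.

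Of the 27 members called in both 24-month LPS libraries, the 10 with the highest mean percentile in those 2 libraries (21.2 down to 11.3) were regions near Gm14453, Il18r1, Cask, Dgki, Morn1, Map1lc3a, Gm9889, Gm36975, Gm26113 and Jade1. The member in an intron of Il18r1, the receptor of interleukin 18 (chr1:40475572-40476159), was at 12.9 and 26.5 in the 24-month LPS libraries and at 42.9 and 27.8 in the 24-month PBS libraries. The one in the first intron of Cask, a scaffold protein (chrX:13798816-13799099), was at 5.48 and 29.0 against 22.8 and 8.14, and the one near Map1lc3a, an autophagy protein (chr2:155295412-155295880), at 2.14 and 22.5 against 20.3 and 13.9. The LPS and PBS values of Cask and Map1lc3a overlapped, and the first LPS library gave the lowest of the 4 values at all 3.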

How the data were processed

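The data were 12 ATAC-seq libraries of microglia, grouped by the sample titles, 2 for each of 6 groups of age and treatment. The authors trimmed reads with cutadapt 2.8, aligned them to mm10 with Bowtie2 2.4.1, removed duplicates with SAMtools and called peaks in each library with Genrich. Versions of SAMtools and Genrich, and any shift of read ends for the transposase, were not stated in the sources used here. The methods describe cells sorted by flow cytometry and the labels also describe nuclei from frozen tissue, and which applies is not settled here. The deposited peak area is a score, significance summed over the peak's length, with no normalization between libraries, and the lowest area in the lists was 200.0. The deposited summit significance is −log10 p, not adjusted for multiple tests. The lists hold no reads, so depth is unknown, no count test was possible, and a longer list can stem from deeper sequencing.

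Peaks on chromosomes 1 to 19 and X were kept (29 to 40 peaks a list on other contigs were left out), and none lay past a chromosome end. Peaks sharing 1 bp were merged. A region was assigned to the nearest TSS of GENCODE M21 (basic set) from its highest-ranking summit and classed as promoter within 1 kb of a TSS. Motifs were sought within 150 bp of that summit in GRCm38.p6. Exact two-sided permutation tests over libraries and Wilson intervals were computed in Python 3.11.15 with scipy 1.17.1, after the code was tested on simulated data.

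The members and the 18 gene lists were chosen with earlier results of these data known. Genes were named by a rule: the 20 members with the highest mean area percentile over the 4 younger PBS libraries, every member nearest to a gene of 6 lists (homeostatic, TGF-beta, transcription factor, receptor, Toll-like receptor 4 and NF-kB), genes nearest to 3 or more members, the 10 members called in both 24-month LPS libraries with the highest mean percentile there, and the 10 members within 1 kb of a TSS with the highest mean over the younger PBS libraries. Cd163, Cd83, Cd9, Cdh5, Hexa, Mef2c, Nfkb1, Sall1, Scarb1, Snap25, Zeb1 and Zeb2 were named outside it, after their values were seen. One of the 18 lists is not reported here. Alternatives were other list lengths, thresholds, merging, conditions at 24 months, promoter and motif windows, gene assignments and each library left out.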

Additional observations from a re-analysis of the deposited data

How the results depend on the processing

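Results are set by presence calls on weak peaks of 2 libraries per group, and the depth behind a missing call is unknown. The number of members was 383 to 633 under changed lists, merging and conditions at 24 months, and 428 to 960 with single libraries left out, the highest without the first 3-month LPS library. The count of members called in both 24-month LPS libraries was 26 to 314 with libraries left out (314 and 50 where 1 LPS library of 24 months remained, 90 and 56 without the first or the second 3-month LPS library), 20 to 50 under the other alternatives, and 50 with the second LPS libraries of 14 and 24 months both left out, an alternative chosen after seeing the data. The difference at 24 months was negative under every alternative run, from -66.2 to -30.1 points, and from -66.1 to -18.6 with libraries left out. The slope on age in PBS was -0.28 points per month with lists of equal length (exact permutation p = 0.0444, against 0.6 to 0.933 with libraries left out), and its sign reversed without the second 3-month PBS library (0.035) or the first 24-month PBS library (0.01), in a range from -0.20 to 0.035. The cause was not tested. The promoter share was 10.6% with lists of equal length, 9.75% within 2 kb and 14.3% within 3 kb, and 5.95% to 7.52% with libraries left out. Members nearest to homeostatic genes numbered 8 to 13 with libraries left out, and 6 to 10 otherwise. The median percentile and the PU.1 share changed by less than the spread between libraries or their counting interval.

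With the replicate number as a replicate block, the difference at 24 months was -42.3 points (exact permutation p = 0.5, the smallest 2 pairs allow) and the slope was -0.10 (exact permutation p = 0.5). Deviations of same-numbered libraries from their group means correlated between -0.26 and 0.21 over the 15 pairs of groups, and over 0.1 in 2 of them, so the numbers were not taken as pairs.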
